A study of Mus musculus with 6 samples.

Results

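A group of 10 genes of the ATF4 arm of the integrated stress response, Atf4, Atf5, Ddit3, Trib3, Asns, Chac1, Nupr1, Ddit4, Ppp1r15a and Vldlr, were followed in mouse liver tumors treated with an inhibitor of the arginine methyltransferase PRMT5. They were chosen by gene symbol from a list of ATF4 pathway genes, and all 10 were found among the 47643 genes of the deposited count table. Bulk RNA sequencing had been performed on total RNA of liver tumors from FVB/N mice with the LAP-tTA and tetO-MYC transgenes, in which the LAP promoter drives the tetracycline transactivator in hepatocytes. Every mouse of both groups carried these transgenes, received doxycycline at 100 mg/L until 4 weeks of age to keep MYC off, and then had MYC on for 8 weeks. The 2 groups next received vehicle or GSK3326595 at 50 mg/kg/day for 2 weeks, with 3 libraries each. Nothing in the labels ties each library to its own mouse, and the p-values below therefore cover only the spread among these 6 libraries, which may be technical.

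Several kinases that sense stress, among them PERK for misfolded proteins and GCN2 for amino acid shortage, phosphorylate the translation factor eIF2α, which lowers protein synthesis but favours translation of the Atf4 and Atf5 mRNAs. ATF4 pairs with C/EBP proteins and turns on genes of amino acid supply and stress adaptation. The product of Ppp1r15a directs a phosphatase back to eIF2α and closes the loop. In liver the pathway responds to diet, amino acids and secretory load, and because ATF4 is largely set by translation, the level of its mRNA does not measure its activity.

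None of the 10 genes passed edgeR's quasi-likelihood test after Benjamini-Hochberg adjustment over all 17012 genes tested, in which 0% of genes were called higher and 0% lower. DESeq2 called 0 of the 10 and 1.1% of all genes higher and 0.591% lower. The limma-voom test called 0 of the 10 and 0% of all genes. At an unadjusted p under 0.05, 3 of the 10 were lower in GSK3326595 (Ddit4, Trib3 and Ppp1r15a) and 0 were higher, where the shares over all genes were 3.81% and 5.45%. Values were lower by sign in 7 of the 10, beside 46.9% of all genes. The median log2 difference of the 10 was -0.40, beside 0.03 over all genes. All 10 passed the filter on low counts. Values below are TMM-scaled CPM (counts scaled to a common library size), log2 differences are GSK3326595 minus vehicle with the SE from edgeR, and n is 3 libraries a group.

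The libraries held 25814339 to 33621083 expected counts. GSK3326595 replicate 2 lay at 103.1 on the first principal component and the other 5 libraries between -50.2 and 9.37. Vehicle replicate 3 was nearer to GSK3326595 replicate 3 than to its own group, with a chi-square per degree of freedom over genes of 89.3 against 113 and 194 to the other vehicle libraries. Of 8 hepatocyte markers 7 were found and tested, and their summed CPM was 12430 to 33350 in vehicle and 7228 to 23090 in GSK3326595, lowest in replicate 3 of either group. Prmt5, the target of the drug, averaged 67.9 ± 18.1 CPM without and 92.4 ± 39.4 CPM with it (SD, n = 3 each; edgeR adjusted p = 0.753).

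The transcription factors came first. Atf4 (ENSMUSG00000042406.7; GRCm38, chromosome 15, 80255184 to 80257541, plus strand) had 138, 119.6 and 91.1 CPM in vehicle replicates 1 to 3 and 96.8, 59.8 and 94.95 CPM in the GSK3326595 replicates. Vehicle replicates 1 and 2 were the highest pair, and vehicle replicate 3 lay within the treated range. The log2 difference of Atf4 was -0.47 ± 0.26 (edgeR adjusted p = 0.623), from -0.59 without GSK3326595 replicate 1 to -0.23 without GSK3326595 replicate 2. Atf5 (ENSMUSG00000038539.15; chromosome 7, 44812256 to 44816658, minus strand), a related factor that is also controlled by translation, had 83.5, 87.4 and 45.9 CPM in vehicle. In GSK3326595 it had 59.2, 104.1 and 24.6 CPM. The treated libraries of Atf5 thus included both the highest and the lowest of the 6, and the difference of -0.21 ± 0.52 (edgeR adjusted p = 0.947) turned to 0.19 without GSK3326595 replicate 3. Ddit3 (ENSMUSG00000025408.15; chromosome 10, 127290774 to 127296288, plus strand), which encodes CHOP, a factor that promotes cell death under prolonged stress, had 6.31, 8.504 and 7.73 CPM in vehicle and 11.2, 5.46 and 6.03 CPM in GSK3326595. Only GSK3326595 replicate 1 lay above the vehicle libraries, and the log2 difference was 0.01 ± 0.34 (edgeR adjusted p = 0.998); it was -0.39 without that library and 0.24 without GSK3326595 replicate 2. Nupr1 (ENSMUSG00000030717.9; chromosome 7, 126623249 to 126630861, minus strand), a small stress-induced chromatin protein, was near the limit of counting, with 22 to 50 expected counts per library. It had 1.05, 1.70 and 0.656 CPM against 1.45, 0.930 and 1.26 CPM, overlapping ranges with a log2 difference of 0.10 ± 0.43 (edgeR adjusted p = 0.969).

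Other gene models overlap Ddit3 and Atf5. Exons of Ddit3 share 68 bases with Mars on the opposite strand and 105 with a model on the same strand that matched no row of the table, and those of Atf5 share 82 bases each with Nup62 and Il4i1. Ppp1r15a shares 12 with Tulp2. The libraries were stranded, per the labels' protocols, but the sources used here do not say whether strand entered the counting.

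**Figure D1:**
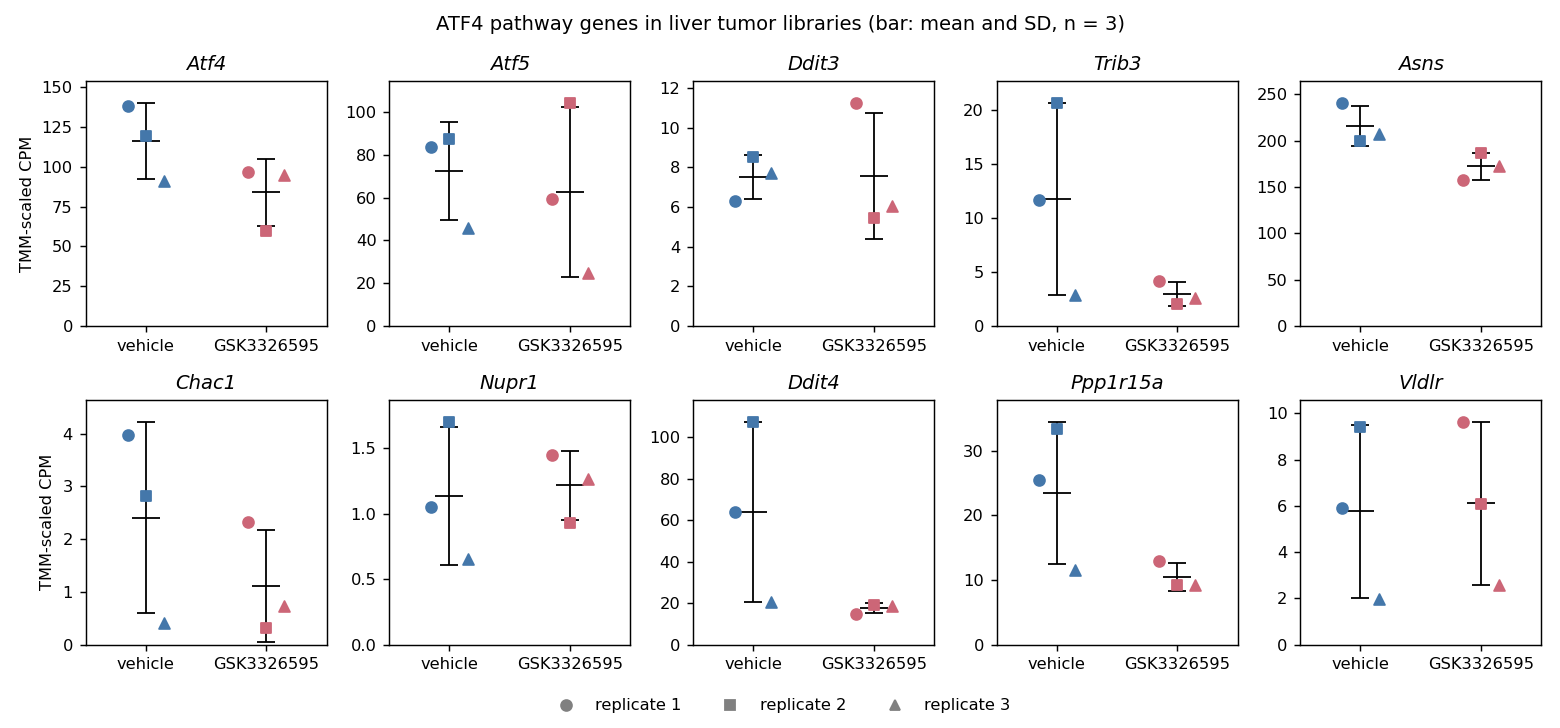
TMM-scaled CPM of each of the 10 genes (y axis, linear, from 0) in the vehicle and GSK3326595 libraries (x axis). Symbols mark the replicates, and bars the mean and SD of n = 3. For Ddit4, Trib3 and Ppp1r15a the spread between vehicle libraries is wider than that between treated libraries, with vehicle replicate 3 at 20.6, 2.83 and 11.6 CPM.

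Feedback and growth control genes held the 3 lowest log2 differences of the 10. Ddit4, whose product REDD1 restrains the growth kinase complex mTORC1, had 64.0, 107.3 and 20.6 CPM in vehicle replicates 1 to 3. In GSK3326595 it had 14.9, 19.2 and 18.8 CPM. Every treated library of Ddit4 was below every vehicle library, a pattern of lower values without overlap that 7.66% of all genes showed (6.72% showed higher values without overlap), but vehicle replicate 3 stood only just above the treated ones. Ddit4 (ENSMUSG00000020108.3; chromosome 10, 59949669 to 59951834, minus strand) had a log2 difference of -1.86 ± 0.55, which is 3.63-fold lower (edgeR adjusted p = 0.491; DESeq2 adjusted p = 0.0536; range over the alternatives 0.0536 to 1). It was the only one of the 10 with an unadjusted edgeR p under 0.05 without each library in turn, from 0.000315 to 0.0453, and its log2 difference then ranged from -2.24 without vehicle replicate 3 to -1.27 without vehicle replicate 2.

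Trib3 (ENSMUSG00000032715.9; chromosome 2, 152337422 to 152344032, minus strand) encodes a pseudokinase that binds ATF4 and AKT and dampens both. It had 11.7, 20.6 and 2.83 CPM in vehicle and 4.16, 2.02 and 2.63 CPM in GSK3326595. Vehicle replicates 1 and 2 were above all treated libraries and vehicle replicate 3 was among them. The log2 difference was -1.99 ± 0.70 (edgeR adjusted p = 0.522), from -2.42 without vehicle replicate 3 to -1.31 without vehicle replicate 2, with unadjusted p from 0.00162 to 0.0932. Ppp1r15a (ENSMUSG00000040435.11; chromosome 7, 45522916 to 45526268, minus strand), the GADD34 subunit that reverses eIF2α phosphorylation, had 25.5, 33.4 and 11.6 CPM in vehicle. In GSK3326595 it had 13.0, 9.21 and 9.24 CPM, so that vehicle replicate 3 again lay within the treated range. Its log2 difference of -1.17 ± 0.40 (edgeR adjusted p = 0.522) ranged from -1.46 without vehicle replicate 3 to -0.83 without vehicle replicate 2, with unadjusted p from 0.00229 to 0.0908. The spread among vehicle libraries, highest over lowest, was 7.26-fold for Trib3, 5.22-fold for Ddit4 and 2.87-fold for Ppp1r15a, against 2.06-fold, 1.29-fold and 1.41-fold among treated libraries. Leaving out replicate 1 or 2 of vehicle, or replicate 2 or 3 of treatment, lowered the count of 3 genes at an unadjusted p under 0.05 to 1, which was Ddit4, and leaving out either other library kept it at 3.

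**Figure D2:**
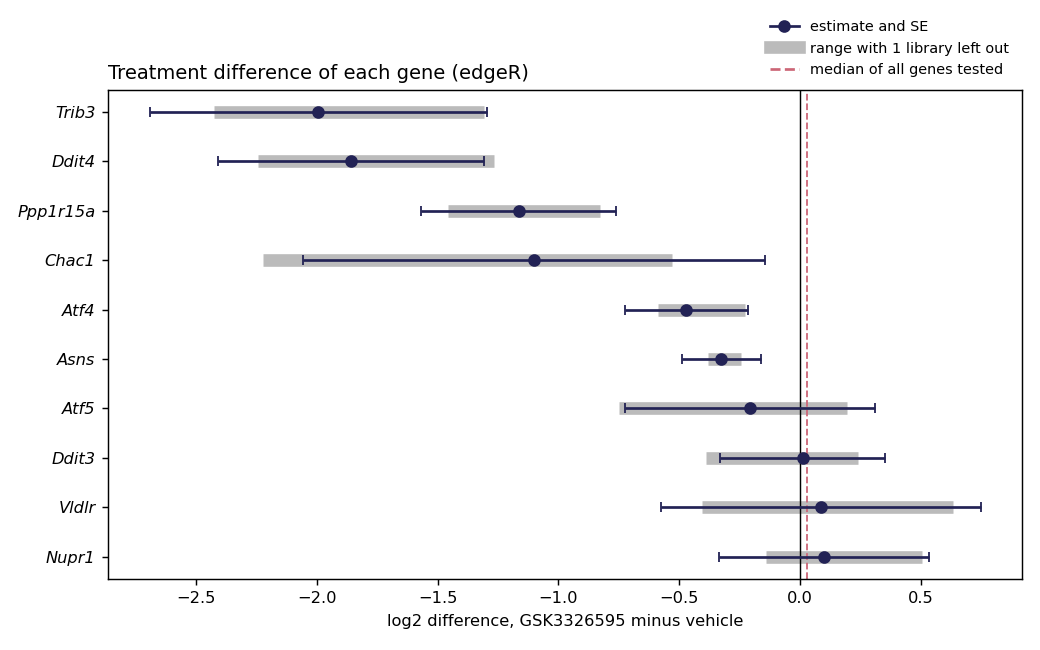
Log2 difference between GSK3326595 and vehicle (x axis) for the 10 genes (y axis), with points and bars for edgeR's estimate and SE, and grey bands for the range when 1 library was left out. Trib3, Ddit4 and Ppp1r15a lie at -1.99, -1.86 and -1.17, while Ddit3, Vldlr and Nupr1 lie within 0.10 of 0 and their bands cross it.

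Amino acid and glutathione genes are the best known targets of ATF4. Asns (ENSMUSG00000029752.12; chromosome 6, 7675169 to 7693254, minus strand), which makes asparagine from aspartate and glutamine, had 240, 199.7 and 207.7 CPM in vehicle and 157.7, 186.5 and 172.4 CPM in GSK3326595. All treated libraries were below all vehicle libraries and the spread within a group was small (215.9 ± 21.6 against 172.2 ± 14.4 CPM, SD, n = 3 each). The log2 difference of Asns was -0.33 ± 0.16 (edgeR adjusted p = 0.588) and stayed between -0.38 and -0.25 without each library. Asns and Ddit4 were the 2 of the 10 genes whose groups did not overlap, beside 7.66% of all genes lower and 6.72% higher without overlap. Chac1 (ENSMUSG00000027313.3; chromosome 2, 119351229 to 119354381, plus strand), an enzyme that degrades glutathione, was low, with 10 to 125 expected counts per library. It had 3.98, 2.82 and 0.418 CPM in vehicle and 2.32, 0.310 and 0.722 CPM in GSK3326595, and each group held both high and low libraries. Its log2 difference was -1.102 ± 0.96 (edgeR adjusted p = 0.765), from -2.22 without GSK3326595 replicate 1 to -0.53 without vehicle replicate 1. Vldlr (ENSMUSG00000024924.14; chromosome 19, 27216484 to 27254231, plus strand), the receptor for very low density lipoprotein that stressed hepatocytes express, had 5.89, 9.42 and 1.97 CPM against 9.64, 6.08 and 2.60 CPM. Replicate 3 was the lowest in both groups of Vldlr, and the difference of 0.09 ± 0.66 (edgeR adjusted p = 0.983) was -0.41 without GSK3326595 replicate 1 and 0.63 without vehicle replicate 2.

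The binding element through which ATF4 and C/EBP proteins act on such genes was looked for in the 250 bases before each RefSeq start site (GRCm38.p6), where all 10 genes had an entry, with 12 start sites in all. The letters TGATGNAAN, searched on both strands, were found before 4 of the 12 starts (Asns, Chac1, Nupr1 and 1 of 2 starts of Vldlr) and before 3.44% of the 32851 starts of all genes. The more specific ATTGCATCA, which is the reverse complement of one form of the first motif, was found before Nupr1 and before 0.167% of all starts. An ER stress response element (CCAAT and CCACG with 9 bases between) was found before 0 of the 12 starts and 0.113% of all. The matches are shown because their letters are those of the searched motif, 5′ to 3′ on the strand of the gene with the match in capitals. The Asns site lies at chr6:7693214-7693242, 23 bases before the start, and the Chac1 site at chr2:119351038-119351066, 194 bases before it. The Nupr1 site lies at chr7:126625563-126625591, 111 bases before the start, and the Vldlr site at chr19:27216809-27216837, 201 bases before the second start. GENCODE M21 places the Asns, Nupr1 and Vldlr sites in an annotated exon and the Chac1 site in none.
Asns: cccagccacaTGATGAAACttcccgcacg
Chac1: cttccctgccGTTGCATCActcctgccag
Nupr1: aaagggccagATTGCATCAgacagggctt
Vldlr: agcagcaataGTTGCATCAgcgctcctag
The matches stand before genes of unlike difference, from -1.102 for Chac1 to 0.10 for Nupr1, on the log2 scale.

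Trib3 and Ddit4, the pair of genes furthest below vehicle, had 0 matches to the 3 motifs in their windows, which says only that those letters are not in these bases. Their upstream sequence is shown, 5′ to 3′ on the minus strand where both genes lie, stopping where an annotated exon begins. The Trib3 stretch covers 250 bases (chr2:152344061-152344310) and the Ddit4 stretch 186 bases (chr10:59951835-59952020).
Trib3: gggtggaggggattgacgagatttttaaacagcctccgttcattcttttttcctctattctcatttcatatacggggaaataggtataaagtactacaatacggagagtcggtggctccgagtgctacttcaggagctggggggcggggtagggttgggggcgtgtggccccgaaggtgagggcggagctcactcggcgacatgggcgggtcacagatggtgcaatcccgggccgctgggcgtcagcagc
Ddit4: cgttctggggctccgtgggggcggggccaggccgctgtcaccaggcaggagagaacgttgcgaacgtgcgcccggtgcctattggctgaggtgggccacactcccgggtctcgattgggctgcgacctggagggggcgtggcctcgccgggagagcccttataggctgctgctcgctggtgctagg

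Levels of different genes were compared per length, as CPM per kb of exon. In vehicle, Asns was the highest of the 10 with 78.95 ± 7.88 CPM per kb, followed by Atf4 with 49.3 ± 10.02, Ddit4 with 36.5 ± 24.7 and Atf5 with 36.3 ± 11.5 (SD, n = 3 each). Ppp1r15a, Trib3 and Ddit3 followed at 8.00, 5.51 and 4.39 CPM per kb, and Chac1, Vldlr and Nupr1 at 1.47, 0.572 and 0.452. In that order the vehicle ranges of Atf4 and Ddit4, Ddit4 and Atf5, Ppp1r15a and Trib3, Trib3 and Ddit3, Chac1 and Vldlr, and Vldlr and Nupr1 overlapped, so that these neighbours did not differ beyond their spread. In GSK3326595 the level of Ddit4 was 10.04 ± 1.36 CPM per kb, below Atf5 with 31.4 ± 20.01. Ddit3 with 4.42 ± 1.85 stood before Ppp1r15a with 3.56 ± 0.735, but their treated ranges overlapped (3.19 to 6.55 and 3.14 to 4.41).

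Across libraries, 5 of the 10 genes (Atf4, Trib3, Chac1, Ddit4 and Ppp1r15a) had vehicle replicates 1 and 2 as their highest pair. Vehicle replicate 3 was the lowest vehicle library in 8 of the 10 and lay within the treated range in 6. GSK3326595 replicate 1 was the highest treated library in 7 of the 10. The mean of the 10 genes, each standardised over the 6 libraries, was 0.68, 0.98 and -0.55 in the vehicle replicates and 0.13, -0.59 and -0.65 in the GSK3326595 replicates, so the groups overlapped. Immediate early genes, which respond within minutes to stimuli and to tissue handling, were high and low in nearly the same libraries. Their summed level was 471, 637 and 304 CPM in vehicle and 407, 167 and 205 CPM in GSK3326595, highest in vehicle replicate 2, then vehicle replicate 1 and GSK3326595 replicate 1, as for the 10 genes. Of the 17 immediate early genes tested, 14 were lower by sign, with a median log2 difference of -0.91. At an unadjusted p under 0.05, 7 were lower, beside 3.81% of all genes. The lists share genes, as Atf3 (-0.26) is among these 17 and also among the bZIP factors and further stress targets below. The part of the immediate early genes in the differences of the 10 genes was not tested.

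**Figure D3:**
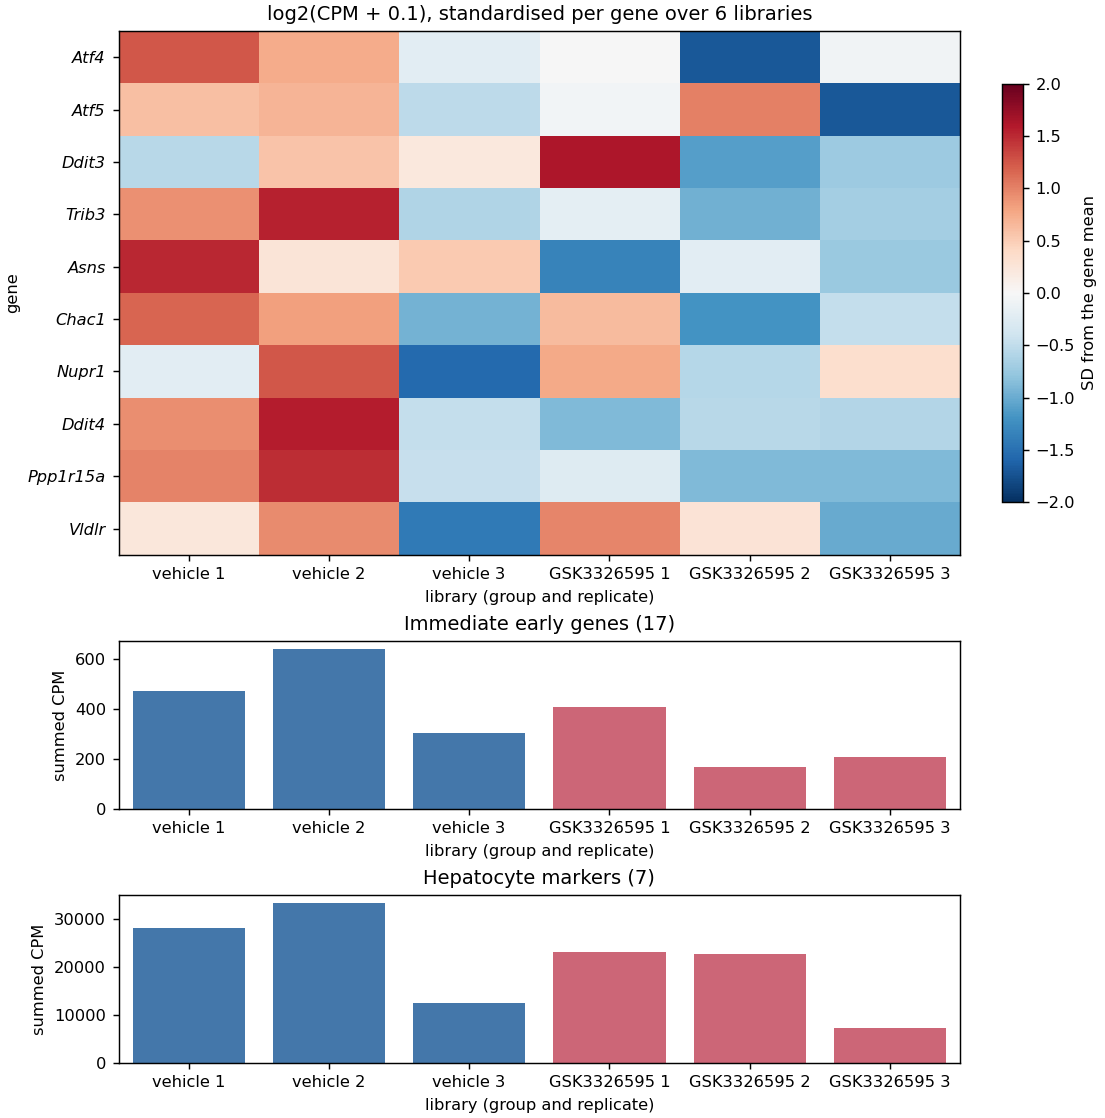
Upper panel: log2(CPM + 0.1) of the 10 genes (rows) in the 6 libraries (columns), standardised per gene, in SD from the gene's mean. Lower panels: summed CPM (y axis, from 0) of the 17 immediate early genes and of 7 hepatocyte markers in the same libraries. Vehicle replicates 1 and 2 are above the mean for most genes, and their immediate early sums of 471 and 637 CPM are the highest of the 6.

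Markers of some other cell types also had different levels in the groups. All 8 T cell markers tested, of 10 fixed, and all 5 dendritic cell markers tested, of 6 fixed, had higher values in GSK3326595, with summed levels of 5.55 to 8.40 CPM against 16.7 to 37.2 CPM and of 3.63 to 5.73 CPM against 11.6 to 23.1 CPM. DESeq2 called 7 of the T cell and 3 of the dendritic cell markers higher, beside 1.1% of all genes, and edgeR called 0. A marker could pass the filter by its treated libraries alone, so these counts are a description only. Stellate cell and fibroblast markers summed to 133 to 529 CPM in vehicle and 586 to 786 CPM in GSK3326595, with 7 of 8 higher by sign. B cell and plasma cell markers, of which 5 of 7 were tested, summed to 2.48 to 3.76 CPM in vehicle and 4.15 to 15.7 CPM in GSK3326595. The highest of them was Ighm, with 1.46 ± 0.524 against 7.84 ± 4.54 CPM (SD, n = 3 each). The groups overlapped for Cd79a and Cd79b. The groups overlapped for the sums of macrophage markers (240 to 351 against 295.5 to 743 CPM) and of endothelial, cholangiocyte and erythroid markers. Neutrophil markers stood at 204 CPM in vehicle replicate 2 and at 1.12 to 13.1 CPM in the other 5 libraries, and so set 1 library apart rather than the groups. In bulk tissue, fewer cells of a type and less RNA per cell cannot be told apart, and the part of these cell types in the 10 genes' values was not tested.

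The kinases of eIF2α, its phosphatase and the factors that recycle it act upstream of ATF4. Of 15 genes fixed, 14 were found and tested, 6 higher and 8 lower by sign with a median log2 difference of -0.06. None was called by edgeR. Beside 3.81% of all genes, 1 of the 14 was lower at an unadjusted p under 0.05. That gene was Impact, an inhibitor of GCN2 activation, at 36.1 ± 2.25 against 24.0 ± 6.19 CPM (mean ± SD of 3 libraries, vehicle first; log2 difference -0.59 ± 0.23, edgeR adjusted p = 0.526; -0.34 without GSK3326595 replicate 2). Eif2b4, a subunit of the exchange factor that phosphorylated eIF2 inhibits, had a difference of -0.46 ± 0.21 (edgeR adjusted p = 0.556). Oma1, a mitochondrial protease that relays mitochondrial stress to eIF2α, had 17.1 ± 0.5002 against 21.8 ± 2.58 CPM (SD, n = 3 each; 0.35 ± 0.18, edgeR adjusted p = 0.601), without overlap. Ppp1r15b, the constitutive partner of the same phosphatase as Ppp1r15a, had a log2 difference of -0.25 ± 0.16 (edgeR adjusted p = 0.679) beside the -1.17 of Ppp1r15a. Among the kinases, Eif2ak3 (PERK) differed by -0.62 ± 0.44 (edgeR adjusted p = 0.706) and Eif2ak4 (GCN2) by -0.09 ± 0.24 (edgeR adjusted p = 0.953). Eif2ak1 differed by -0.28 ± 0.18 (edgeR adjusted p = 0.683) and Eif2ak2 by 0.07 ± 0.19 (edgeR adjusted p = 0.952). The groups overlapped for each kinase.

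Among 12 dimer partners and related bZIP factors, 9 were lower and 3 higher by sign, with a median of -0.25. Batf, a factor of lymphocytes and dendritic cells, averaged 0.527 ± 0.192 CPM without and 1.46 ± 0.849 CPM with the drug, groups that did not overlap (SD, n = 3 each; 1.47 ± 0.53, edgeR adjusted p = 0.522). Atf6, a sensor of ER stress that acts beside the ATF4 arm, had 133.5 ± 21.7 against 91.9 ± 15.4 CPM (-0.54 ± 0.20, edgeR adjusted p = 0.524; n = 3 each). Nfe2l2, the antioxidant factor NRF2, had a difference of 0.25 ± 0.15 (edgeR adjusted p = 0.650) and Atf2 of -0.23 ± 0.15 (edgeR adjusted p = 0.681). Batf differed by 0.90 without GSK3326595 replicate 1 and Atf2 by -0.11 without GSK3326595 replicate 2.

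Other targets of ATF4 had differences of both signs. In a list of 20 further stress targets 19 were tested, 13 lower and 6 higher by sign (median -0.26), with 0 called and 0 at an unadjusted p under 0.05. Gdf15, a secreted stress hormone, averaged 11.7 ± 2.98 CPM without and 6.70 ± 2.38 CPM with the drug (SD, n = 3 each; -0.81 ± 0.36, edgeR adjusted p = 0.552). Ndrg1, a gene also induced by hypoxia, differed by -0.84 ± 0.47 (edgeR adjusted p = 0.633), and Gpt2, the mitochondrial alanine transaminase, by 0.62 ± 0.40 (edgeR adjusted p = 0.679). The Gpt2 value was 0.07 without GSK3326595 replicate 2, which had 547.2 CPM against 188 to 243 CPM in the other 5 libraries. Without the same library Gdf15 differed by -0.49 and Ndrg1 by -0.52. Amino acid transporters were higher by sign in 8 of 10, with a median of 0.20. The glycine transporter Slc6a9 had the smallest p of these, with 2.61 ± 0.898 against 5.59 ± 2.27 CPM (SD, n = 3 each; 1.098 ± 0.41, edgeR adjusted p = 0.522). Slc3a2, the heavy chain that carries several such transporters to the membrane, differed by 0.30 ± 0.24 (edgeR adjusted p = 0.748) and Slc38a2, a glutamine and alanine transporter, by 0.27 ± 0.24 (edgeR adjusted p = 0.776). Without GSK3326595 replicate 3 these were 0.07 and 0.09.

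Enzymes of serine, one-carbon and proline synthesis had 8 of 10 members lower by sign and a median of -0.64. Of these members 0 were called and 3 were lower at an unadjusted p under 0.05, beside 3.81% of all genes. Psat1, which makes phosphoserine, averaged 634.9 ± 133.9 CPM without and 326.3 ± 104.6 CPM with the drug (SD, n = 3 each; -0.96 ± 0.30, edgeR adjusted p = 0.499). Shmt2 differed by -0.76 ± 0.21 (edgeR adjusted p = 0.459), Psph, the last enzyme of serine synthesis, by -0.73 ± 0.31 (edgeR adjusted p = 0.543) and Pycr1, of proline synthesis, by -1.06 ± 0.39 (edgeR adjusted p = 0.522). The groups did not overlap for Psat1, Shmt2 and Psph, a pattern of lower values that 7.66% of all genes showed. They did overlap for Pycr1. Phgdh, also of serine synthesis, had 448.1 ± 131.5 against 435.1 ± 123 CPM (SD, n = 3 each). Its log2 difference was -0.04 ± 0.31 (edgeR adjusted p = 0.981). The values of the list ran from -1.30 for Cth, of cysteine synthesis, to 0.12 for Mthfd2. Psph differed by -0.40 without GSK3326595 replicate 2. Cytosolic aminoacyl-tRNA synthetases, which load amino acids onto tRNA, had 8 higher and 10 lower of 18, a median of -0.04 and a range from -0.38 for Dars to 0.24 for Wars, with 0 at an unadjusted p under 0.05. Whether these lists differ from each other was not tested.

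**Figure D4:**
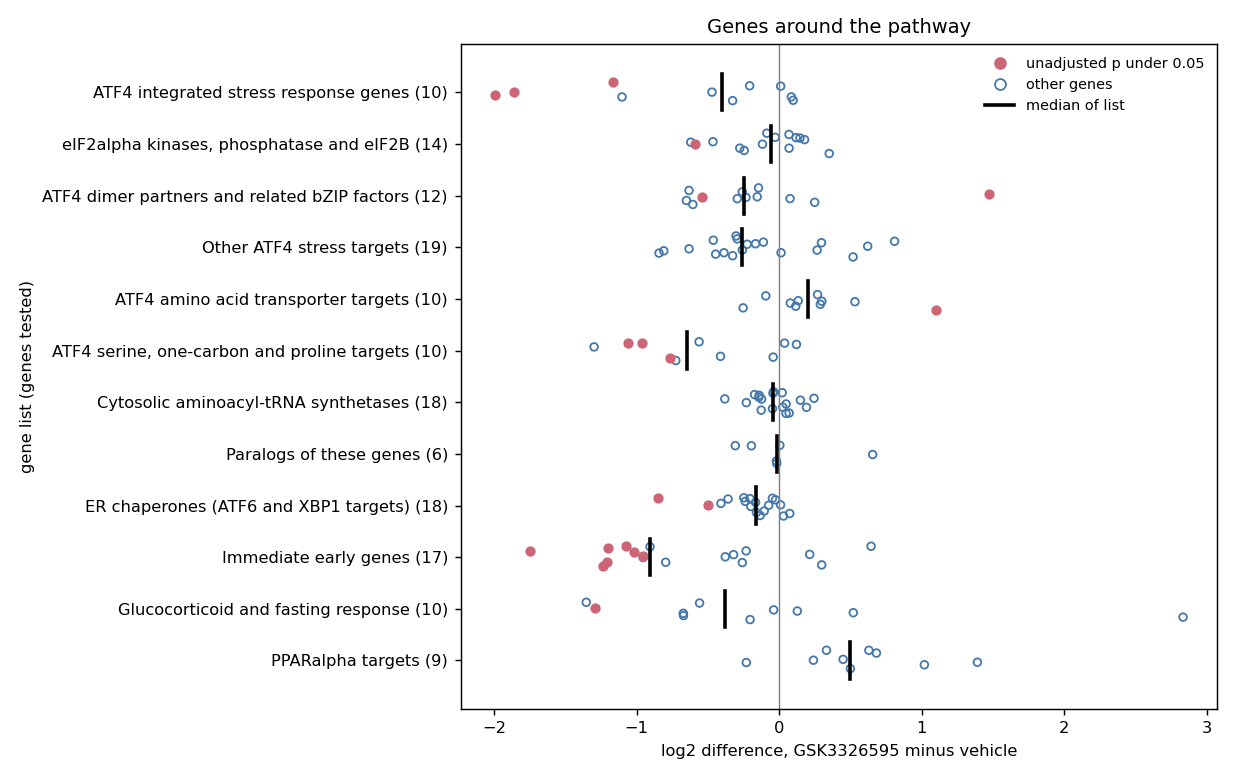
Log2 difference of each gene tested (x axis) in the pathway lists (y axis, with the number of genes tested); filled points had an unadjusted edgeR p under 0.05 and black lines mark the median of each list. The 10 genes have a median of -0.40, the immediate early genes of -0.91 and the aminoacyl-tRNA synthetases of -0.04.

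Close relatives of the 10 genes served as a side view. Of 7 paralogs 6 were tested, and 0 had an unadjusted p under 0.05. Trib2, another Tribbles pseudokinase, averaged 1.94 ± 0.506 CPM without and 3.06 ± 0.658 CPM with the drug (SD, n = 3 each; 0.66 ± 0.33, edgeR adjusted p = 0.593). Chac2, the constitutive relative of Chac1, had 13.8 ± 1.47 against 13.6 ± 2.62 CPM (-0.02 ± 0.23, edgeR adjusted p = 0.989; n = 3 each). That Chac2 estimate was 0.07 with scaling by total counts only.

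Chaperones of the endoplasmic reticulum, targets of the ATF6 and XBP1 branches, were lower by sign in 15 of 18, with a median of -0.16. Of the 18, 2 were lower at an unadjusted p under 0.05, beside 3.81% of all genes. Dnajc3, an inhibitor of PERK, averaged 321 ± 58.5 against 178 ± 64.7 CPM without overlap (SD, n = 3 each; -0.85 ± 0.29, edgeR adjusted p = 0.522). Manf, a secreted factor induced by ER stress, differed by -0.50 ± 0.21 (edgeR adjusted p = 0.538). Ddit4 also responds to glucocorticoids and Vldlr to PPARα, so target lists of both were counted. Of 10 glucocorticoid and fasting genes 7 were lower by sign (median -0.38). The smallest p was that of Irs2, an insulin receptor substrate, with 151 ± 56.8 against 61.6 ± 19.8 CPM (SD, n = 3 each; -1.30 ± 0.36, edgeR adjusted p = 0.482). Pdk4, a brake on glucose oxidation, differed by -1.35 ± 0.80 (edgeR adjusted p = 0.646) and by -0.15 without vehicle replicate 2. Tat, a tyrosine-degrading enzyme, had the widest difference of the list, 2.83 ± 1.505 (edgeR adjusted p = 0.613), with 311.6 CPM in GSK3326595 replicate 2, and it was -0.043 without that library. Of 10 PPARα targets 9 were tested, 8 of them higher by sign (median 0.50). Their summed level was 1876, 2069 and 1556 CPM in vehicle and 1733, 3292 and 948 CPM in GSK3326595, so that only GSK3326595 replicate 2 stood above the vehicle libraries. The smallest p was that of Cpt2, of mitochondrial fatty acid import, with 0.63 ± 0.27 (edgeR adjusted p = 0.549). Without GSK3326595 replicate 2, Ehhadh and Cpt1a of fatty acid oxidation differed by -0.017 and -0.074.

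The genes whose pattern was most like the standardised mean of the 10, among 9277 other genes of at least 10 CPM on average, were Chic2, Pim1, Hilpda, Tbk1 and St3gal1, with Pearson r from 0.982 to 0.996 over the 6 libraries. As the highest of many values over so few libraries that also share depth and composition, these are a description only. Pim1, a serine/threonine kinase gene of cytokine signalling, had 24.6, 32.1 and 10.6 CPM in vehicle and 15.7, 10.2 and 8.91 CPM in GSK3326595. Hilpda, a lipid droplet gene induced by hypoxia, had 15.9, 23.4 and 4.54 CPM in vehicle and 11.5, 3.50 and 4.004 CPM in GSK3326595. In both, vehicle replicate 2 was the highest library and GSK3326595 replicate 1 the highest treated one.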

How the data were processed

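The authors deposited a table of expected counts per gene, that is, estimated reads with no scaling for depth. The tools cutadapt, STAR, Picard and RSEM and build mm10 are named, without roles, per the submitters' processing notes. The annotation release and strand setting are not given in the sources used here. Expected counts were rounded to whole numbers. Genes were kept by filterByExpr (minimum count 10) and scaled by TMM. The main test was edgeR's quasi-likelihood F test (version 4.0.16, R 4.3.3), two-sided, Benjamini-Hochberg adjusted over 17012 genes, threshold 0.05. Log2 CPM used a prior count of 2, and the SE is the absolute log2 difference over the square root of F. Alternatives were DESeq2 1.42.0, voom in limma 3.58.1, other scalings and filters, a block for replicate number, and fits that left out 1 library each. The 3 tools were tested on simulated data. Positions and union exon lengths came from GENCODE M21 (GRCm38; 47224 of 47643 IDs matched without version), promoters from RefSeq. The genes and lists were chosen with earlier results of these data known. Named genes were the 10, Prmt5, up to 4 of smallest p per list, the kinases of eIF2α, some hypoxia-induced genes, and, by likeness of pattern only, 5 more. Phgdh, Cth, Mthfd2, Atf3 and the B cell markers were named to show the spread or overlap of lists. For these, the kinases, the hypoxia-induced genes and the 5 of like pattern no alternatives were run.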

Additional observations from a re-analysis of the deposited data

How the results depend on the processing

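None of the 10 genes was called by edgeR under any scaling, filter, replicate block or left-out library tried, nor by DESeq2 or limma-voom. In all of these fits except DESeq2, 0 of all genes were called, so this result is not particular to the 10. Over all genes, DESeq2 called 186 higher and 100 lower where edgeR called 0, and it called Jund and Jun among the genes named; the cause was not tested. Unadjusted p-values under 0.05 numbered 927 for higher and 648 for lower genes. These counts became 1547 higher with no filter on low counts, where more genes were tested, and 430 lower with total counts only, where the median of all genes moved from 0.03 to 0.12 and that of the 10 from -0.40 to -0.30. Leaving out 1 library gave 347 to 1629 higher genes, and 241 to 961 lower. Among the 10, 3 had such a p, against 1 by limma-voom (cause not tested) and 1 to 3 without each library. Whether replicate numbers pair the samples could not be settled, because deviations from the mean of so few libraries are tied to each other. Deviations of same-numbered libraries correlated at -0.07, 0.07 and 0.32. Vehicle replicates 1 and 2 correlated best with another number, and vehicle replicate 3 with its own. With the replicate block 2 of the 10 had an unadjusted p under 0.05, and 638 genes were higher and 779 lower. Ddit3 turned to -0.053 by limma-voom and -0.0605 with the replicate block, Nupr1l to 0.0070 by limma-voom, and Chac2 to 0.069 with total counts only, 0.0028 with no filter and 0.028 with at least 1 CPM in 3 libraries. Without each library, log2 differences ranged from -0.75 to 0.19 for Atf5, -0.39 to 0.24 for Ddit3, -0.14 to 0.50 for Nupr1 and -0.41 to 0.63 for Vldlr. They also crossed 0 for Slc1a4 (-0.22 to 0.83), Lrp8 (-0.59 to 0.093), Nupr1l (-0.71 to 0.59), Chac2 (-0.10 to 0.14), Tat (-0.043 to 3.41), Ehhadh (-0.017 to 1.103) and Cpt1a (-0.074 to 0.79). Over 55 genes (the 10, Prmt5 and the list genes of smallest p, without the 5 named for likeness) and 14 settings, 744 of 768 log2 differences kept their direction and side of the threshold. As only DESeq2 called any gene, this count is nearly one of sign alone. A difference that shrank, such as that of Gpt2 from 0.62 to 0.07 without GSK3326595 replicate 2, still counted as kept. At 22 to 50 expected counts, depth limits what could be seen for Nupr1.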

Other observations

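Hypoxia-induced genes were counted because Ddit4, Ndrg1 and Hilpda are among them. This list of 11 genes was chosen after values were seen and was given no test as a list. Hypoxia-induced genes among the 10 or in the other lists were left out of it, but Hilpda, named for its likeness to the 10, was kept. Of the 11, 10 were lower by sign in GSK3326595, beside 46.9% of all genes, with a median log2 difference of -0.76. Of these genes 0 passed edgeR's adjusted threshold over all genes. At an unadjusted p under 0.05 there were 2, where the shares over all genes were 3.81% lower and 5.45% higher. Bnip3, a mitophagy receptor, had 584.5, 634.6 and 247.3 CPM in vehicle and 242.4, 139.9 and 202.8 CPM in GSK3326595 (log2 difference -1.33 ± 0.40, SE; edgeR adjusted p = 0.492). Egln3, an oxygen-sensing prolyl hydroxylase, had 95.8, 107.1 and 48.4 CPM against 41.8, 10.1 and 47.9 CPM. P4ha1 was higher by sign, with 0.58 ± 0.47 (SE; edgeR adjusted p = 0.744), and Car9 differed by -0.13 ± 0.68 (edgeR adjusted p = 0.974). The summed level of the 11 was 1301, 1387 and 720 CPM in vehicle and 821, 486 and 706.5 CPM in GSK3326595. In that sum, which includes Hilpda, vehicle replicates 1 and 2 were the highest pair and vehicle replicate 3 lay within the treated range. The highest values in it were those of Bnip3 and of Ak4, which had 392.6, 363.7 and 253.8 CPM against 326.8, 208.4 and 257.9 CPM.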
